A study of Mus musculus with 2 samples.

Results

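The genes described here are the 8 α- and β-tubulin genes with the most counts in sorted microglia of PSAPP mice, of 32285 genes in the count table. They are the β-tubulins *Tubb2a*, *Tubb2b*, *Tubb5*, *Tubb4b* and *Tubb6* and the α-tubulins *Tuba1a*, *Tuba1b* and *Tuba1c*. The family was chosen on the low ratio of lemborexant over vehicle of *Tubb2b* and *Tubb2a* in these same data, so that ratio is a description of the family and no test of it. A further 12 tubulin genes are in the table, of which 3 were detected in at least 1% of cells.

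PSAPP mice carry the APPswe/PS1δE9 transgenes in both groups and form amyloid plaques. They were given lemborexant (LEM, 30 mg/kg), a blocker of both orexin receptors, or vehicle (VEH, methylcellulose in PBS) by daily gavage from 9 to 10 months of age. Cortex and hippocampus gave the live CD45lo CD11b+ cells that were sorted, and those of 5 mice of both sexes were pooled into 1 single-cell library of 5′ ends per treatment. Mice of origin are not labelled within a pool, and no group of PSAPP mice without gavage or of mice without the transgenes was used here.

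Neither treatment has a replicate library, so no test of the treatment was possible. The library of VEH held 18374 cells with a median of 5971 counts, and that of LEM 24392 cells with a median of 6034. All 12 microglial markers were detected, *P2ry12* in 98.7% and 98.4% of cells. Parentheses hold exact 95% intervals (Poisson for counts, Clopper-Pearson for shares), which cover counting error only. A cell was taken as female if it held *Xist* but no transcript of a Y-linked gene, and as male in the reverse case. As far as these calls hold, this parted each pool into different mice of the same treatment (5686 female and 9025 male VEH cells, 8409 and 11223 LEM cells). The other 3663 VEH and 4760 LEM cells had no call, among them 2745 that held both kinds of transcript. Stray or missed transcripts may have put some cells with the wrong sex, which was not tested.

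Microtubules are polymers of α- and β-tubulin pairs. Each of both subunits is encoded by several genes, called isotypes, whose proteins are nearly the same except at their ends, and cells differ in which isotypes they make. Microglia use microtubules to move cargo along their processes and to build the spindle when they divide. Tubulin mRNA is also under a feedback in which free tubulin leads to decay of tubulin mRNA on the ribosome. The factor TTC5 carries this feedback, and it reads the first residues of the growing chain.

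The bases that encode those first residues are shown because TTC5 reads them, with 1 form in the β-tubulins and another in the α-tubulins. The lines give the first 30 coding bases of the main transcript in GENCODE M21, 5′ to 3′, with the first 12 bases, which encode the residues read by TTC5, in capitals.
Tubb2a: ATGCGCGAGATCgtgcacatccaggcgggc
Tubb2b: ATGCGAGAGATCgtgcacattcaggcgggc
Tubb5: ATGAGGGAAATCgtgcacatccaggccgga
Tubb4b: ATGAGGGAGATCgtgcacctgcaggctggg
Tuba1a: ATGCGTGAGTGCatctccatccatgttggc
Tuba1b: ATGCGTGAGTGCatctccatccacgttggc
Tuba1c: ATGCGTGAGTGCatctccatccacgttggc
The 4 β-tubulins differ from each other within the capitals only in synonymous bases, and the 3 α-tubulins do not differ there. *Tuba1b* and *Tuba1c* do not differ over all 30 bases.

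How far the genes can be told apart by reads was measured on the transcripts. *Tubb2a* and *Tubb2b* had the same base at 96.5% of their 1338 coding positions, with 47 unlike bases, 44 of them at the third position of a codon. Their last 60 coding bases, which encode the acidic tail where β-tubulins differ most, are shown with the bases that differ between the pair in capitals. All of these differences are synonymous, so *Tubb2a* and *Tubb2b* encode the same tail.
Tubb2a: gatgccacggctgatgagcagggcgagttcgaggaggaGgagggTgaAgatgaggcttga
Tubb2b: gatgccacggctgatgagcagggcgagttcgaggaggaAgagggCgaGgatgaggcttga
Even so, 0 of the 411 windows of 90 bases in the first 500 bases of the *Tubb2a* transcript were found unaltered in *Tubb2b*. Among the α-tubulins such windows were common, with 137 of 411 (33.3%) of *Tuba1a* also in *Tuba1b* and 181 of 411 (44.0%) of *Tuba1b* also in *Tuba1c*. Reads from those windows cannot be given to 1 gene, so the split of α-tubulin counts among its 3 members is less certain than that of β-tubulin counts.

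*Tubb2a* and *Tubb2b* lie side by side on the minus strand of chromosome 13 (GRCm38, chr13:34074274-34078007 and chr13:34126748-34130466), and the 3 α-tubulins lie together on chromosome 15. *Tubb5* is on chromosome 17, *Tubb4b* on chromosome 2 and *Tubb6* on chromosome 18. The main transcript of each has 4 exons.

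In VEH microglia the family was led by *Tuba1b*, the most widely used α-tubulin, at 515 CPM (511–519), counts of the gene scaled to the library's total, and in LEM it stood at 510 (506–513). *Tubb5*, the main β-tubulin of non-neuronal cells, stood at 314 (311–317) in VEH and 331 (328–334) in LEM. *Tuba1a*, an α-tubulin known from developing neurons, stood at 296 (292–299) and 268 (266–271). These CPM are of molecules tagged at their 5′ ends, so they were not divided by transcript length.

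A second tier of genes stood at 7 to 70 CPM. *Tubb2a*, a β-tubulin best known from neurons, had 69.9 CPM (68.4–71.4) in VEH and 20.8 (20.1–21.5) in LEM. *Tubb2b*, its neighbour and also known from developing neurons, had 30.8 (29.8–31.8) and 7.24 (6.83–7.67). In VEH the order of the second tier was *Tubb2a*, *Tubb4b*, *Tuba1c*, *Tubb2b* and *Tubb6*, and in LEM it was *Tubb4b*, *Tuba1c*, *Tubb2a*, *Tubb6* and *Tubb2b*. *Tubb4b*, a broadly expressed β-tubulin that is abundant in cilia, had 62.9 (61.4–64.3) and 67.7 (66.4–68.9). *Tuba1c* had 47.9 (46.6–49.2) and 57.0 (55.8–58.2), and *Tubb6*, a minor β-tubulin, 12.3 (11.7–13) and 10.0 (9.51–10.5). Neighbours in each library's order did not overlap in their counting intervals.

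**Figure D1:**
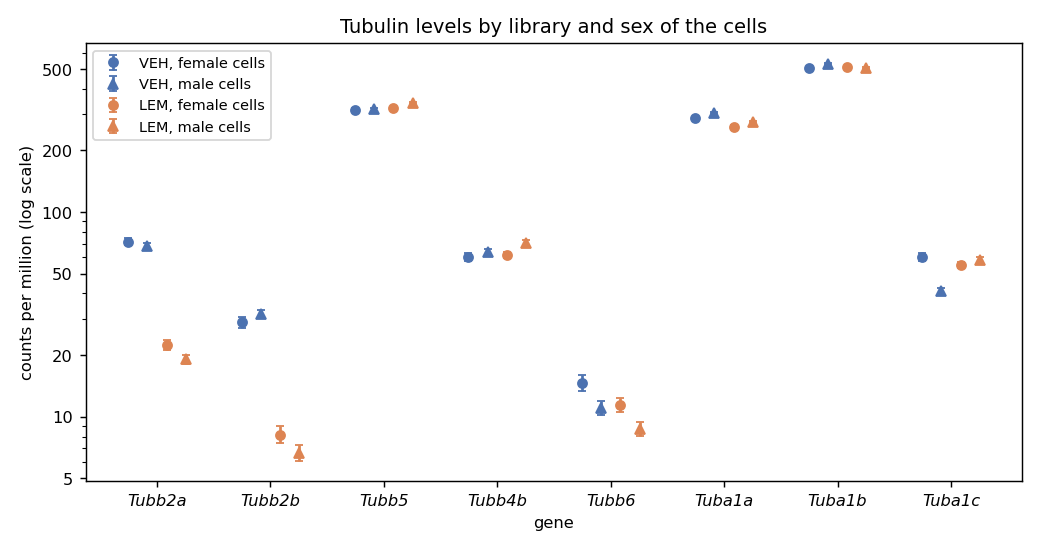
Counts scaled to the library total (CPM, log axis) of the 8 tubulin genes in female (circles) and male (triangles) cells of the VEH (blue) and LEM (orange) libraries, with exact Poisson intervals as bars. Both LEM points of *Tubb2a* (22.3 and 19.1) and *Tubb2b* (8.17 and 6.66) lie below both VEH points, while the VEH male point of *Tuba1c* (41.0) lies below the other 3.

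The ratio of LEM over VEH that led to the choice of this family was −1.75 on the log2 scale for *Tubb2a* (−1.81 to −1.69) and −2.09 for *Tubb2b* (−2.18 to −1.99). These were the 11th and the 5th lowest of the pooled ratios of 11910 genes detected in at least 1% of cells. In female cells *Tubb2a* stood at 71.5 CPM in VEH and 22.3 in LEM, and in male cells at 68.3 and 19.1. *Tubb2b* stood at 29.0 and 8.17 in female cells and at 31.7 and 6.66 in male cells. The VEH and LEM values of both genes did not overlap over the sexes, which was also so for *Tubb5* and *Tuba1a* at far smaller differences. For the pair the sexes of a library differed by 0.29 or less on the log2 scale. At a log2 ratio of −0.5 or less in both sexes, 2 of 8 members were lower in LEM, where 0.647% of all genes tested met that mark. At −1 or less in both sexes they were the same 2, with 0.126% of all genes. The choice of the members fixed these counts.

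The other 6 members had pooled ratios between −0.30 and 0.25. The member just outside the mark of −0.5 was *Tubb6*, at −0.36 in female and −0.34 in male cells, and the member just inside it was *Tubb2a*, at −1.68 and −1.84. The ratio was 0.08 (0.06 to 0.10) for *Tubb5*, 0.11 (0.06 to 0.15) for *Tubb4b* and −0.30 (−0.41 to −0.20) for *Tubb6*. Among α-tubulins it was −0.14 (−0.16 to −0.12) for *Tuba1a*, −0.01 (−0.03 to 0.00) for *Tuba1b* and 0.25 (0.20 to 0.30) for *Tuba1c*. Pooled, 0 of 8 members reached 0.5 or more (1.62% of all genes did) and 2 of 8 reached −0.5 or less (1.24% of all genes). *Tubb4b* was at −0.03 (−0.08 to 0.02) among microglia that passed no gate for a cell state. It was at 0.05 without choroid plexus- and BAM-gated cells. Both choroid plexus-gated cells (0.256% of the VEH and 0.594% of the LEM library) and G2/M-gated cells (0.784% and 0.894%) held it at a high level.

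*Tuba1c* differed between the sexes in VEH. It had 60.2 CPM (57.7–62.8) in female and 41.0 (39.3–42.6) in male VEH cells, and 54.9 (53.0–56.9) and 58.4 (56.6–60.1) in LEM. *Tubb6* was higher in female cells of both libraries, by 0.41 (0.24 to 0.58) on the log2 scale in VEH and 0.39 (0.23 to 0.55) in LEM. Each sex of a pool is fewer than 5 mice, and how single mice contribute to these differences was not tested.

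The make-up of β-tubulin counts differed between the libraries more than their amount. All 5 β members together stood at 490 CPM in VEH and 437 in LEM (log2 ratio −0.17, −0.18 to −0.15), and without *Tubb2a* and *Tubb2b* at 389 and 409, a ratio of 0.07 (0.05 to 0.09). *Tubb2a* made up 14.3% (14.0–14.6) of β-tubulin counts in VEH and 4.75% (4.6–4.91) in LEM, and *Tubb2b* 6.29% (6.09–6.49) and 1.66% (1.56–1.76). *Tubb5* made up 64.1% (63.7–64.5) and 75.8% (75.5–76.1). The 3 α members summed to 858 and 835 CPM, a ratio of −0.04 (−0.05 to −0.03).

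Per cell, *Tuba1b*, *Tubb5* and *Tuba1a* were detected in most cells and the other 5 members in a minority. *Tuba1b* was detected in 83.2% of VEH and 85.2% of LEM cells and *Tubb5* in 71.8% and 74.9%, and *Tuba1a* in 68.3% and 68.0%. *Tubb2a* was detected in 30.1% (29.5–30.8) of VEH and 10.7% (10.3–11.1) of LEM cells, and *Tubb2b* in 16.0% (15.5–16.5) and 4.28% (4.03–4.55). After each cell was thinned to 2000 counts, the shares were 12.4% and 3.65% for *Tubb2a* and 5.76% and 1.42% for *Tubb2b*. Both genes were therefore seen in fewer LEM cells also at 1 depth.

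Most cells with *Tubb2b* held 1 count of it. Of VEH cells, 13.1% held 1, 2.44% held 2 and 0.12% held 4 or more, with a highest count of 5. Of LEM cells, 3.87% held 1 and 0.418% (102 cells) held 2 or more. *Tubb2a* reached 9 counts in a VEH cell and 7 in a LEM cell, with 9.49% and 2.22% of cells at 2 or more. The mean count in cells with any *Tubb2a* was 1.47 in VEH and 1.28 in LEM.

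If each cell held its library's mean level, depth alone would give *Tubb2a* in 34.2% of VEH cells and *Tubb2b* in 17.3%. The observed shares were 30.1% and 16.0%, and in LEM 10.7% against 12.6% and 4.28% against 4.63%. Both genes were thus seen in slightly fewer cells than an even spread would give. The variance over the mean was 1.51 and 1.47 for *Tubb2a* in VEH and LEM and 1.25 and 1.19 for *Tubb2b*. It was larger for *Tuba1c* (3.24 and 3.80), *Tubb4b* (2.72 and 4.37), *Tuba1b* (4.47 and 4.85), *Tubb5* (3.77 and 3.79) and *Tuba1a* (2.56 and 2.30). Where cell depth varies, this measure rises with a gene's mean, so it does not compare the spread of genes of unlike level. The largest counts of *Tuba1c*, *Tubb4b* and *Tuba1b*, 40, 51 and 83, far exceeded any of *Tubb2a* or *Tubb2b*.

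**Figure D2:**
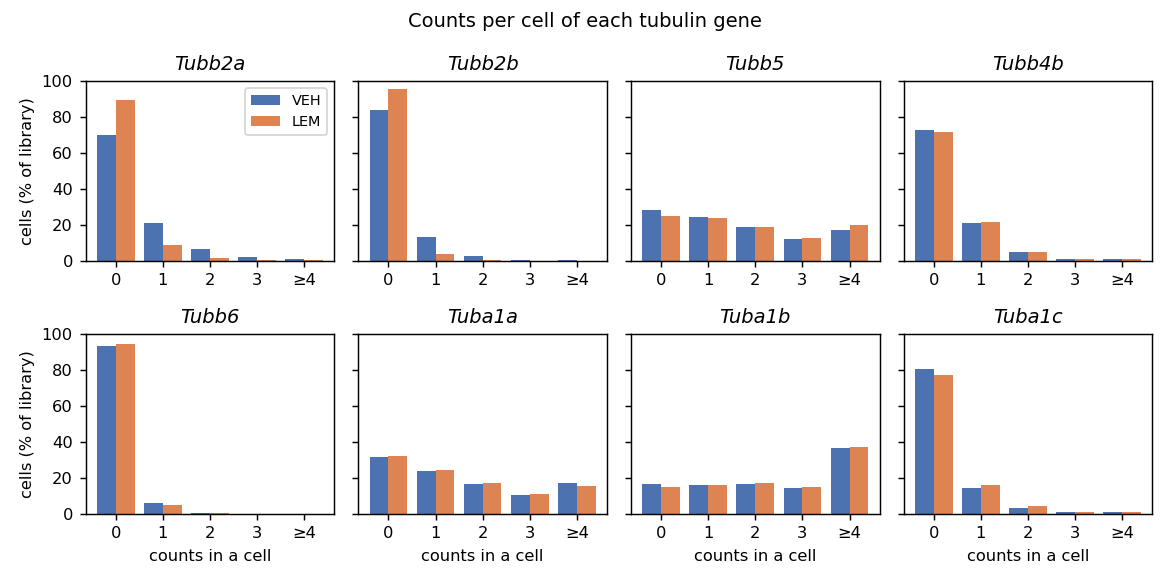
Share of cells of each library (y axis, percent) with 0, 1, 2, 3 or at least 4 counts of each tubulin gene (x axis), VEH in blue and LEM in orange. *Tubb2a* and *Tubb2b* have more LEM than VEH cells at 0 counts (89.3% against 69.9%, and 95.7% against 84.0%), whereas the bars of the other 6 genes nearly match.

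*Tubb2a* and *Tubb2b* were found in the same cells more often than depth gave. With the expected share taken within 10 groups of cells of like depth, 7.40% of VEH cells held both against 5.68% expected, a ratio of 1.30 (1.24–1.37), and 1.30% of LEM cells against 0.553%, a ratio of 2.34 (2.09–2.61). Of LEM cells with *Tubb2b*, 30.2% also held *Tubb2a*, and of those without it 9.79%. In VEH the corresponding shares were 46.3% and 27.1%.

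The excess was seen in both sexes but not to the same extent. It was 1.56 (1.42–1.70) in female and 1.18 (1.10–1.28) in male VEH cells, and 1.89 (1.55–2.28) in female and 3 (2.53–3.53) in male LEM cells. The order of the sexes thus turned between the libraries. Among microglia past no gate alone it was 1.30 in VEH and 2.45 in LEM, as large as in all cells. The table names cells serially without barcodes, so barcodes shared between the libraries could not be counted. Whether the cells that held both came from particular mice was not tested. Nor was it tested whether some reads of 1 gene of the pair were counted for the other.

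Over all cells the pair had the highest ratio of all pairs in LEM but not in VEH. Among ungated microglia it was the highest in both, where the other pairs reached 1.22 in VEH and 1.19 in LEM. Over all cells the ratios of the remaining 27 pairs ran from 0.953 to 1.32 in VEH and from 0.996 to 1.29 in LEM. The interval lay above 1 for 12 pairs in VEH and 11 in LEM and below 1 for 0 pairs in either. The highest of these in both was *Tubb6* with *Tuba1c*, at 1.32 (1.20–1.46) and 1.29 (1.18–1.41). *Tubb2a* with *Tubb5*, another β-tubulin, was at 1.03 in both libraries. Such a ratio has a ceiling that is lower the more cells hold the more widely detected gene of a pair. Pairs with *Tuba1b*, *Tubb5* or *Tuba1a*, each detected in most cells, could therefore not reach the 2.34 of LEM. The ranking and the contrast between the libraries thus depend on detection rates, and how far was not tested.

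**Figure D3:**
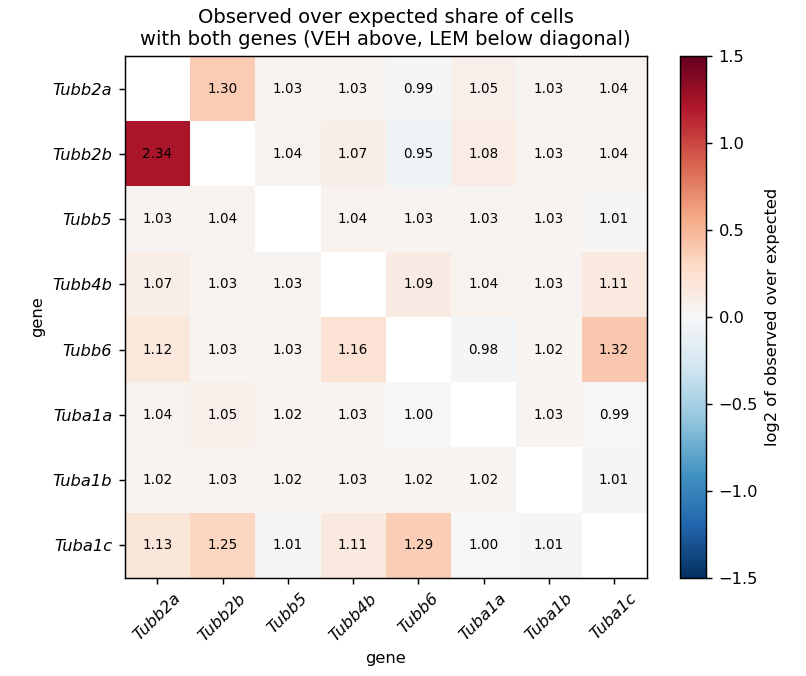
Observed over expected share of cells with both genes for each pair of tubulin genes, VEH above and LEM below the diagonal, coloured by its log2. The pair *Tubb2a* and *Tubb2b* (1.30 and 2.34) has the deepest colour in LEM, and the other 27 pairs run from 0.953 to 1.32.

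Cell states were set by raw marker counts, a cell passing a gate when it held at least 1 count of a set number of markers. Gates were for dividing cells in G2/M (4 of 15 markers such as *Top2a* and *Cdk1*) and in S phase (4 of 13), for disease-associated microglia (DAM, 3 of 7 such as *Cst7* and *Lpl*), for the interferon response (4 of 10), for border-associated macrophages (BAM, 3 of 7) and for choroid plexus cells (4 of 10). No tubulin was a marker. G2/M took 144 VEH and 218 LEM cells, S phase 66 and 115, DAM 488 and 623 and interferon 351 and 622, and 17251 and 22600 microglia passed no gate. Gates on raw counts favour deep cells (median 11090 counts in VEH DAM cells against 5857 in ungated cells), so states were compared by CPM.

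In G2/M cells 5 of 8 members were at least 2-fold higher than in ungated microglia in both libraries, where 9.38% of all genes tested were. *Tuba1c* had 608 CPM in G2/M and 38.3 in ungated VEH cells, a log2 ratio of 3.99 (3.88 to 4.09), and 689 and 44.5 in LEM, a ratio of 3.95 (3.87 to 4.03). *Tubb4b* had 646 and 53.8 in VEH (3.58, 3.48 to 3.68) and 769 and 52.7 in LEM (3.87, 3.79 to 3.94). Both stood in the second tier in ungated microglia and among the family's main genes in G2/M. *Tubb5* (2.60 in VEH and 2.48 in LEM), *Tuba1b* (2.43 and 2.44) and *Tubb6* (2.38 and 2.78) were also higher.

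The other 3 were not 2-fold higher in dividing cells of either library. *Tubb2a* had 68.7 CPM in G2/M and 70.1 in ungated VEH cells, a ratio of −0.03 (−0.33 to 0.26), and 25.9 and 19.7 in LEM (0.39, 0.00 to 0.76). *Tubb2b* was at −0.65 (−1.24 to −0.13) in VEH and 0.51 (−0.16 to 1.10) in LEM, on 29 and 23 counts. Summed, the pair was at −0.19 (−0.45 to 0.06) in VEH and 0.42 (0.09 to 0.74) in LEM. *Tuba1a* was lower, at −0.53 (−0.70 to −0.37) and −0.36 (−0.49 to −0.23). The 2 groups of members were the same in both libraries.

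In S phase 2 of 8 members, *Tubb5* and *Tuba1b*, were at least 2-fold higher in both libraries, as 3.36% of all genes were. *Tubb5* was at 1.63 (1.52 to 1.75) in VEH and 1.36 (1.26 to 1.45) in LEM, and *Tuba1b* at 1.22 (1.12 to 1.33) and 1.15 (1.07 to 1.23). *Tuba1c*, the most raised in G2/M, was at 0.17 (−0.41 to 0.70) and −0.42 (−0.91 to 0.03), on 29 and 39 counts. *Tubb4b* was at 0.52 (0.10 to 0.92) and 0.39 (0.06 to 0.71). *Tubb5* and *Tuba1b* thus stood higher in both phases, *Tuba1c* and *Tubb4b* mainly in G2/M.

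**Figure D4:**
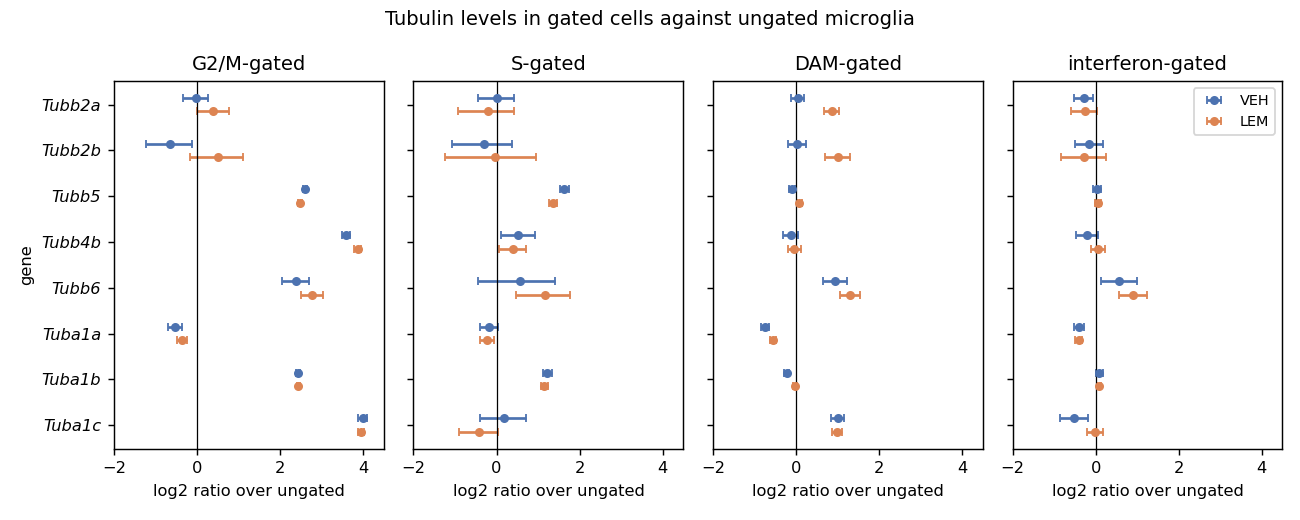
Log2 ratio of CPM in gated cells over ungated microglia of the same library (x axis) for the 8 tubulin genes, VEH blue and LEM orange, with exact 95% intervals from counts as bars. In G2/M 5 genes stand at 2.38 or more in both libraries. *Tubb2a* and *Tubb2b* stand at 0.86 and 1.00 in LEM DAM cells against 0.04 and 0.03 in VEH. With a gate of 2 markers more, which is not drawn, they were at 1.18 and 1.47 in LEM and 0.57 and 0.86 in VEH.

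Promoters are shown for the 2 genes with the highest G2/M ratios, *Tuba1c* and *Tubb4b*, beside that of *Tubb2a*, which was not 2-fold higher in either library. Many promoters of G2/M genes hold CCAAT boxes, bound by NF-Y, and a cell cycle homology region (CHR), bound by the DREAM complex. The 250 bases before the start are from RefSeq (GRCm38.p6), 5′ to 3′ on the strand of the gene, at chr15:99029641-99029890 (plus strand) for *Tuba1c*, chr2:25224703-25224952 (minus strand) for *Tubb4b* and chr13:34078009-34078258 (minus strand) for *Tubb2a*. Capitals mark CCAAT and the CHR letters TTTGAA or TTCGAA, searched on both strands, so that a CCAAT on the other strand reads ATTGG.
Tuba1c: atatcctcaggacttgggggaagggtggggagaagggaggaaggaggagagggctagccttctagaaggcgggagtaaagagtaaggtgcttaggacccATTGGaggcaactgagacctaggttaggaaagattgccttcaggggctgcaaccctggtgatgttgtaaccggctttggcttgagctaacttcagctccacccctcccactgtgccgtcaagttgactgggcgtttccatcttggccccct
Tubb4b: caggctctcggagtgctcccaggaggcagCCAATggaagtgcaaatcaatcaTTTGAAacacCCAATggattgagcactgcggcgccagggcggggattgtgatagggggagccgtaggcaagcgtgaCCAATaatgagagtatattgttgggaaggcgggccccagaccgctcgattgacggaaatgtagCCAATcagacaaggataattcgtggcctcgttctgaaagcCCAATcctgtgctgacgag
Tubb2a: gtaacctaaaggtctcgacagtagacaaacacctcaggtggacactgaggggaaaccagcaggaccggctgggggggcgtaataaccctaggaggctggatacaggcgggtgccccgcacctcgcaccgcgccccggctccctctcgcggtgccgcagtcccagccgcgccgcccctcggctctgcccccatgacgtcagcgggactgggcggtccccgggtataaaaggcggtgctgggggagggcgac
The *Tuba1c* window held 1 CCAAT and no CHR, the *Tubb4b* window 5 CCAAT and 1 CHR, and the *Tubb2a* window 0 of either. Of 32851 promoter windows, 33.8% held CCAAT, 17.1% a CHR and 6.02% both. Of the other members with an entry, *Tubb5* had 2 CCAAT, *Tuba1a* 1 and *Tuba1b* 0, and none of these 3 had a CHR. The RefSeq windows of *Tuba1b* and *Tuba1a* lie largely within those genes as GENCODE M21 has them, so they need not be the bases before the start. The match of letters is a description.

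In DAM cells 0 of 8 members were 2-fold different in both libraries (6.37% of all genes were), with 2 members at the mark. *Tuba1c* was at 1.00 (0.85 to 1.15) in VEH and 0.98 (0.86 to 1.10) in LEM, and *Tubb6* at 0.94 (0.65 to 1.22) and 1.30 (1.05 to 1.55). *Tuba1a* was lower, at −0.75 (−0.84 to −0.65) and −0.55 (−0.63 to −0.48). *Tubb5*, *Tubb4b* and *Tuba1b* lay between −0.22 and 0.08.

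*Tubb2a* and *Tubb2b* took different values in DAM cells of the libraries. *Tubb2a* had 72 CPM in DAM and 70.1 in ungated VEH cells, but 35.8 and 19.7 in LEM, a ratio of 0.04 (−0.11 to 0.19) and 0.86 (0.67 to 1.04). *Tubb2b* had 31.7 and 31.1 in VEH (0.03, −0.20 to 0.25) and 14.0 and 6.98 in LEM (1.00, 0.69 to 1.30). The log2 ratio of LEM over VEH for the summed pair was therefore −1.06 (−1.25 to −0.86) in DAM and −1.92 (−1.97 to −1.87) in ungated cells. In LEM the ratio of DAM over ungated was 0.86 in female and 0.84 in male cells for *Tubb2a*, and 1.32 and 0.30 for *Tubb2b*. After thinning to 2000 counts, which keeps few counts of either gene, it was 0.37 for *Tubb2a* and 0.87 for *Tubb2b*, and in VEH 0.09 and 0.23. With a gate of 2 markers more (87 VEH and 117 LEM cells), *Tubb2a* was at 0.57 in VEH and 1.18 in LEM and *Tubb2b* at 0.86 and 1.47, so that VEH DAM cells were also higher there.

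In interferon-gated cells *Tuba1c* was at −0.51 (−0.86 to −0.18) over ungated in VEH and −0.02 (−0.21 to 0.17) in LEM, and its log2 ratio of LEM over VEH there was 0.71 (0.33 to 1.10). *Tuba1a* was at −0.40 (−0.52 to −0.29) in VEH and −0.41 (−0.50 to −0.32) in LEM and *Tubb6* at 0.57 (0.12 to 1.00) and 0.91 (0.57 to 1.23). The LEM over VEH ratio of the summed *Tubb2a* and *Tubb2b* was −1.95 (−2.28 to −1.62) there, close to that of ungated cells, and −1.30 (−1.72 to −0.89) in G2/M cells.

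BAM-gated cells of the libraries did not differ in *Tubb2a* beyond counting error, while choroid plexus-gated cells held less of it in LEM. In BAM-gated cells (25 in VEH and 68 in LEM) *Tubb2a* had 132 CPM (87.7–191) and 115 (89.4–146), which is −0.19 (−0.85 to 0.50) as a log2 ratio, and *Tubb2b* had 4 and 2 counts in all. Other members were lower in LEM there, *Tuba1b* at −0.75 (−1.05 to −0.45), *Tuba1c* at −0.85 (−1.61 to −0.06) and *Tubb5* at −0.48 (−0.91 to −0.04). The *Tubb2a* interval for BAM lies above that for LEM ungated cells, whose ratio was −1.83 (−1.89 to −1.76). In choroid plexus-gated cells (47 and 145) *Tubb4b* had 520 (455–591) and 628 (585–673) CPM and made up 63.7% and 73.7% of β-tubulin counts. The LEM over VEH ratio in these cells was −1.34 (−2.23 to −0.45) for *Tubb2a* and −1.73 (−2.53 to −0.93) for the summed pair, on 31 and 27 counts of the pair. *Tubb2a* was detected in 29.8% (17.3–44.9) of choroid plexus cells in VEH and 13.8% (8.63–20.5) in LEM, close to the shares in microglia of the same library. The choroid plexus cells were deeper, at medians of 9154 and 8161 counts against 5857 and 5906 in ungated microglia. By CPM *Tubb2a* was at 49.1 (30.8–74.4) in choroid plexus and 70.1 in ungated cells of VEH, and at 19.4 (12.5–28.6) and 19.7 in LEM. Choroid plexus cells are not known to lack the gene, so free RNA and own expression cannot be told apart there.

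**Figure D5:**
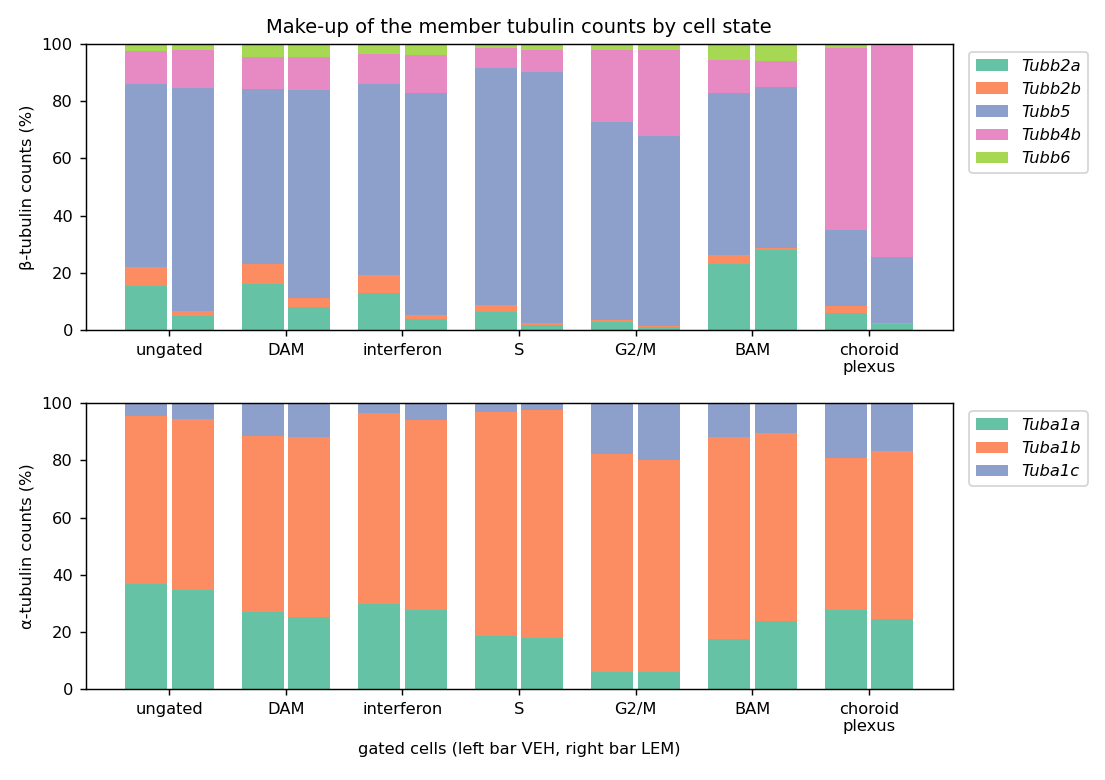
Share of each gene (colours) in the β-tubulin (upper panel) and α-tubulin (lower panel) counts of the members, in percent, for each gate, VEH on the left and LEM on the right of each pair of bars. *Tubb2a* has 15.3% of β counts in ungated VEH cells and 5% in LEM, *Tubb4b* 25.1% and 29.9% in G2/M cells, and *Tuba1a* 36.8% and 34.8% of α counts in ungated cells against 6.14% and 6.19% in G2/M.

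In make-up, β-tubulin of G2/M cells was 69.2% *Tubb5* and 25.1% *Tubb4b* in VEH and 66.5% and 29.9% in LEM. *Tuba1a* went from 36.8% of α-tubulin counts in ungated VEH cells to 6.14% in G2/M, and *Tuba1c* from 4.62% to 17.7%. In LEM the same shares were 34.8% and 6.19%, and 5.61% and 19.8%. Over its 5 β members a G2/M cell pool stood at 2571 CPM in VEH and 2575 in LEM.

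Because *Tubb2a*, *Tubb2b* and *Tuba1a* are known from neurons, neuronal RNA was measured. Of 16 neuronal markers, 14 were detected in under 1% of cells of both libraries, and the list summed to 16.0 CPM in VEH and 18.6 in LEM. *Snap25* had 25 and 42 counts, *Stmn2* 5 and 17 and the neuronal tubulin *Tubb3* 41 and 58. The list's sum was below *Tubb2a* and *Tuba1a* in both libraries and below *Tubb2b* in VEH, but above *Tubb2b* (7.24 CPM) in LEM. Single markers went either way between the libraries, as *Rbfox3* had 28 and 21 counts and *Grin1* 23 and 13. Choroid plexus markers summed to 441 CPM in VEH and 1331 in LEM, most of it *Ttr*. *Ttr* was detected in 0.397% of VEH and 0.652% of LEM cells, so this sum rests on few cells and is not a level across microglia. The choroid plexus gate took 0.256% and 0.594% of cells.

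Of the other 12 tubulin genes 1 was detected in at least 10% of cells. *Tubg1*, the γ-tubulin that nucleates microtubules, was detected in 12.2% and 12.3% of cells at 21.6 and 20.8 CPM (log2 ratio −0.05, −0.13 to 0.02). *Tuba4a* was at 5.30 and 6.23 CPM and *Tubd1* at 5.91 and 5.45. *Tuba3a*, *Tuba3b* and *Tubal3* had 0 counts in either library.

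Other microtubule genes were counted at the same marks, which 1.62% (0.5 or more) and 1.24% (−0.5 or less) of all genes reached. Of 11 genes of the γ-tubulin ring, 21 of tubulin folding, 15 of tubulin modification and 28 motor genes detected in at least 1% of cells, 0 were at 0.5 or more and 0 at −0.5 or less, with list medians of 0.01, 0.01, −0.05 and −0.01 beside 0.01 for all genes, and counts of 0 in lists of this size are near those shares. Among genes of these lists detected in at least 10% of cells, the nearest to the mark was *Kif13a*, a kinesin of endosomal transport, at −0.47 (−0.53 to −0.40). *Ttc5*, whose product reads the tubulin chain, was at 51.5 CPM in VEH and 49.9 in LEM. *Tbcb*, a folding cofactor, was at −0.04 (−0.08 to 0.00).

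Among 35 genes of microtubule assembly 0 were at 0.5 or more and 1 was at −0.5 or less, also near the 1.24% of all genes. *Cfap77*, a protein of the inner wall of ciliary microtubules, had 470 CPM in VEH and 132 in LEM and was detected in 73.8% and 33.9% of cells. Its log2 ratio was −1.83 (−1.85 to −1.81), or −2.22 among female and −1.56 among male cells. Of 6 markers of ciliated cells, 5 were detected in under 1% of cells of both libraries. *Nav3*, which binds the plus ends, was at −0.38 (−0.39 to −0.36).

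The genes next to the pair on chromosome 13 were read as its surroundings. *Bphl*, which ends next to the 3′ end of *Tubb2a* on the opposite strand, was at 18.9 CPM in VEH and 11.4 in LEM, which is −0.73 (−0.82 to −0.64) in log2, or −0.55 among female and −0.96 among male cells. *Psmg4*, beyond *Tubb2b*, was at −0.31 (−0.38 to −0.24). *Ripk1* was at −0.08 (−0.14 to −0.01), *Nqo2* at −0.13 (−0.25 to 0.00) and *Serpinb6a* at 0.07 (0.00 to 0.14). Of these neighbours *Bphl* alone was at −0.5 or less in both sexes.

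Over 16 pools (2 libraries, 2 sexes and the ungated, DAM, interferon and G2/M cells), the gene with the pattern most like *Tubb2b* was *Tubb2a*, with a Pearson correlation of 0.931 of log2(CPM + 10). It was followed by *Pianp* (0.849), *Rpl29* (0.817), *Neat1* (0.807) and *Trpm3* (0.804). *Pianp* was at 43.2 CPM in VEH and 10.3 in LEM and *Rpl29*, a ribosomal protein, at 344 and 172. The 16 pools come from 2 libraries and are not independent, so the correlations are descriptions. The low LEM over VEH ratio on which *Tubb2a* and *Tubb2b* were chosen also enters the correlations with *Tubb2b*. *Pianp* had a like ratio, at −2.07 on the log2 scale. For *Tubb5* the 5 most alike genes were *Snrpd1* (0.997), *Anp32e* (0.995), *Ncaph2*, *Usp1* and *Ube2s* (0.994 each). *Tubb5* was at 2.60 and 2.48 over ungated cells in G2/M, but between −0.10 and 0.08 in DAM and interferon cells. Its correlations therefore rest mainly on the G2/M pools.

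Cells with at least 2 *Tubb2b* counts were compared with cells without any within each library and sex. They were deeper, with medians of 8123 against 5979 counts in female VEH cells and 8408 against 6064 in female LEM cells. The gene with the largest ratio in the pool where it was lowest was *Itgax*, an integrin and DAM marker, at 1.44 and 1.19 on the log2 scale in female and male VEH cells and 2.37 and 0.77 in LEM. *Ank* (lowest 0.73), *Plaur* (0.72), *Ccl6* (0.70), *Capg* (0.65) and *Cfap77* (0.63) followed. Then came *Cd52*, *Cox6a2*, *Crlf2* and *Dbi*, with a lowest ratio of 0.57 to 0.44. The LEM pools rest on 38 female and 45 male cells. Asking for 2 counts favours deep cells, and DAM-gated cells were deep (median 11090 counts in VEH against 5857 in ungated cells). By CPM, *Tubb2b* in DAM over ungated cells was at 0.03 (−0.20 to 0.25) in VEH and 1.00 (0.69 to 1.30) in LEM. How far depth enters the ratio of *Itgax* and the other genes was not tested.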

How the data were processed

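Single-cell 5′ libraries of sorted microglia, 1 per treatment, each from 5 pooled mice, were analysed. The authors counted unique molecules with Cell Ranger 8.0.0 on mm10, named SoupX for free RNA and filtered cells by genes, counts and mitochondrial share. The authors deposited integer counts for each cell, which they had not normalized. From whole numbers alone it cannot be told whether the SoupX correction is in them. *Ttr* was detected in 0.397% of VEH and 0.652% of LEM cells, beside 0.256% and 0.594% in the choroid plexus gate. What this says of the correction was not tested. Cell names carry the treatment, and 0 columns were unmatched. The members and the gene lists were chosen with earlier results of these data known.

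CPM were summed counts over library totals, and log2 ratios have exact conditional intervals. No ratio was given where both sums were at most 3. Genes tested reached detection in 1% of the cells in one or other library, and genes named from lists 10%. Other tubulin genes and cell type markers were exempt and are named at any detection. Those held to 10% were the 2 highest and 2 lowest ratios of each list, of which some are printed, the 5 most alike patterns and the 10 genes of *Tubb2b* cells. Gates were applied in the order choroid plexus, BAM, G2/M, S, interferon and DAM. Doublets were kept. Scrublet (scanpy 1.11.5) set no usable threshold in VEH (0 cells called), so an alternative left out the highest scores, 9.83% of VEH and 9.85% of LEM cells. Thinning to 2000 counts left out 1305 VEH and 1215 LEM cells. Sequences and positions are from GENCODE M21 and RefSeq. The code for ratios and co-detection was run on simulated Poisson counts without differences between mice. That run checks the code and does not show that the intervals hold for these data. Python 3.11.15, numpy 2.4.6, scipy 1.17.1 and biopython 1.88 were used.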

Additional observations from a re-analysis of the deposited data

Results flagged for a closer look

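*Tuba1c* had ratios of opposite sign in the sexes. Female cells had a log2 ratio of LEM over VEH of −0.13 (−0.21 to −0.05), male cells one of 0.51 (0.44 to 0.58), and the difference was not tested, since each pool is 1 library. In ungated microglia the ratios were −0.10 (−0.19 to −0.01) and 0.47 (0.38 to 0.56). The 4 levels there were 49.3 CPM in female and 31.2 in male VEH cells and 46.0 and 43.2 in LEM, so the male VEH cells were the ones apart. The split was not particular to *Tuba1c*. Over all cells *Tuba4a*, which is not a member, was at −0.16 in female and 0.53 in male cells, on 616 VEH and 1002 LEM counts.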

How the results depend on the processing

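No paired analysis was possible because each treatment has 1 library. For the same reason a difference between the pools of mice and one of the treatment cannot be told apart. The log2 ratio of the summed *Tubb2a* and *Tubb2b* was −1.85 and went to −1.72 in female cells alone, −1.96 in male cells alone and −1.92 in ungated microglia alone (the last chosen after the data were seen). It stayed between −1.89 and −1.83 under the other scalings, without high doublet scores, in thinned cells and without choroid plexus and BAM gates. The count of members lower in both sexes was 2 under each of these that keeps both sexes and at a mark of 1, and 3 at a mark of 0.3, and that of G2/M members was 5 throughout. Members 2-fold different in DAM cells numbered 0, but 1 with a gate of 1 marker more, in thinned cells and with counts scaled per cell and averaged, and 2 without high doublet scores, *Tubb6* and *Tuba1c* lying at the mark. Co-detection of *Tubb2a* and *Tubb2b* was 1.30 in VEH and 2.34 in LEM, and became 1.74 and 4.2 with at least 2 counts asked of each, 1.39 and 2.08 in thinned cells and 1.54 and 2.84 with the expectation over all cells. The cause of these shifts was not tested. Of single members, *Tubb4b* ranged from −0.03 to 0.15, *Tuba1b* from −0.06 to 0.02 and *Tuba1c* from −0.13 to 0.51 over 9 alternatives, so their direction was not settled.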
